A study of Sus scrofa with 11 samples.

Results

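The 5 genes described here encode enzymes that release glucose from glycogen or carry it through glycolysis to lactate: PYGM, HK2, GAPDH, ENO1 and LDHA. A probe set was taken as a member when the platform annotation gave it exactly 1 of these symbols. Each gene had 1 such probe set, so the members are 5 of 12217 genes with a symbol and 5 of the 27558 probe sets on the array. All 5 passed a filter on dim probe sets, which left out the lowest 25% by mean log2 signal over the arrays (under 3.63).

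Glycolysis splits glucose into pyruvate in the cytosol and yields ATP without oxygen. The heart normally draws most of its ATP from fatty acid oxidation, and it relies more on glucose and on its own glycogen store when oxygen is short, as in muscle behind a narrowed coronary artery. Without oxygen, pyruvate is reduced to lactate, which regenerates the cofactor that glycolysis needs.

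Whole-transcript arrays were run on ischemic left ventricle of male Yorkshire pigs, all carrying an ameroid constrictor, a ring that slowly closes the artery, on the left circumflex artery. The 4 groups were pigs on a high fat diet whose heart muscle was injected with extracellular vesicles (EV; HFD+EV, 3 arrays), pigs on a high fat diet injected with vehicle (HFD, 2), pigs on a normal diet injected with EV (ND+EV, 3) and pigs on a normal diet injected with vehicle (ND, 3). Diets lasted 12 weeks, and tissue was taken 5 weeks after the injection. The labels call the arrays of a group biological replicates and tie none to a named animal, so the spread between arrays may be in part technical. Neither the source of the EV nor the age of the pigs was known here, and no group without the constrictor was analysed here, so the levels cannot be set against muscle without ischemia.

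Values are the authors' normalized log2 signal, in which a difference of 1 is a doubling. Differences were tested with limma over all 20668 probe sets past the filter, with Benjamini-Hochberg adjustment and a threshold of 0.05. In HFD against ND 152 probe sets (0.735%) passed. With limma 0 passed in each of the other comparisons of 2 groups and in both EV summaries, the difference of the EV effects between diets and their mean. The share with an unadjusted p under 0.05 was 5.54% in HFD+EV against HFD, 8.51% in ND+EV against ND, 7.36% for diet in EV-injected hearts (HFD+EV against ND+EV), 8.42% for the difference between the EV effects and 5.42% for their mean. A pair of ND arrays, replicates 1 and 3, resembled the remaining arrays least: each one's correlation with the others averaged 0.946 and 0.952, while the other 9 arrays had 0.965 to 0.972. These ND arrays also had the smallest spread of log2 signal over probe sets (SD 1.45 and 1.47, against 1.499 to 1.624). In HFD against ND the fold change of a probe set was related to its mean signal: the median log2 fold change was -0.11 for probe sets with a mean signal below 5, 0.095 between 5 and 7, 0.39 between 7 and 9, and 0.37 above 9. The tissue carried the markers of ventricular muscle, with mean log2 signals of 12.42 for MYH7 and 11.89 for MYL3. Of 8 skeletal muscle markers 4 had a probe set: MYH1 and PVALB lay below the filter, while ACTN3 had a mean log2 signal of 5.83 and MYLPF of 4.85, above that of 78.4% and 60.4% of probe sets.

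**Figure D1:**
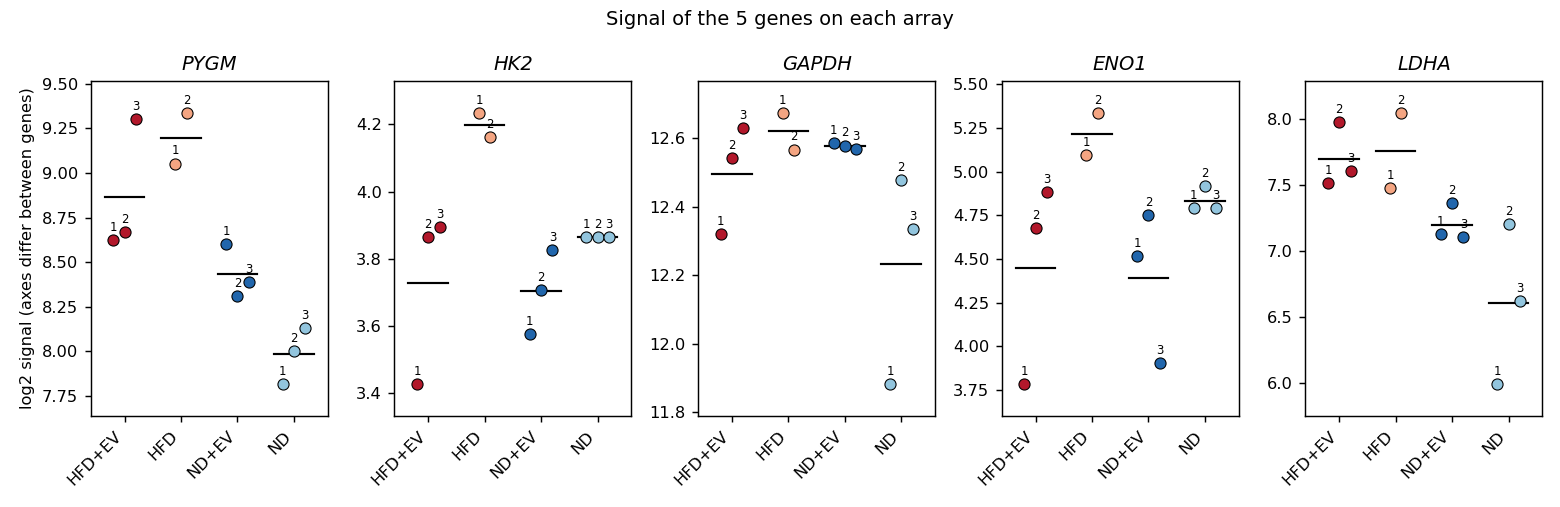
Log2 signal of PYGM, HK2, GAPDH, ENO1 and LDHA on each of the 11 arrays, with each gene on its own axis. Points are arrays, numbers above them are replicate numbers and horizontal lines are group means. PYGM and LDHA were higher on all 5 high fat diet arrays (HFD+EV and HFD) than on all 6 normal diet arrays (ND+EV and ND), whereas the 3 HK2 values in ND are identical.

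PYGM, the muscle glycogen phosphorylase, which cuts glucose units off the glycogen chain, rose in HFD against ND and was the only member to pass the threshold in any comparison. Its log2 signal was 8.62, 8.67 and 9.30 in HFD+EV, 9.05 and 9.33 in HFD, 8.60, 8.31 and 8.39 in ND+EV, and 7.82, 8.005 and 8.13 in ND (replicates in order). The lowest high fat diet array was just above the highest normal diet array, with HFD+EV replicate 1 at 8.62 and ND+EV replicate 1 at 8.60. Groups ran in the order HFD, HFD+EV, ND+EV, ND. HFD and HFD+EV overlapped, and the other neighbours in this order did not.

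PYGM had a mean of 9.19 ± 0.20 on the 2 HFD arrays and 7.98 ± 0.16 on the 3 ND arrays (± SD), a log2 fold change of 1.21 ± 0.21 (SE) or a fold of 2.31 (limma adjusted p = 0.0471). In this comparison 0.513% of all probe sets passed as higher. The mean diet effect, which averages HFD minus ND and HFD+EV minus ND+EV, was 0.82 ± 0.14 (SE; limma adjusted p = 0.0461, with 0.861% of probe sets passing as higher). The adjusted p of this mean effect was above 0.05 in 15 of 21 alternatives. All 5 high fat diet arrays lay above all 6 normal diet arrays at 1.61% of probe sets. The direction of the difference between HFD and ND held under the alternatives tried. Its size ran from 0.79 under cyclic loess and 0.86 under quantile normalization to 1.35 without HFD replicate 1. The call did not hold: the adjusted p of PYGM in HFD against ND was above 0.05 in 17 of 22 alternatives and ranged from 0.0233 to 0.284, and it was 0.263 without HFD replicate 2 and 0.284 without the pair of ND arrays named above, where the log2 fold change was 1.19.

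In EV-injected hearts PYGM averaged 8.87 ± 0.38 in HFD+EV and 8.43 ± 0.15 in ND+EV (SD, n = 3 each), a log2 fold change of 0.43 ± 0.19 (SE; limma adjusted p = 0.663), or 0.21 without HFD+EV replicate 3. The EV comparisons of PYGM had opposite signs under the 2 diets, with -0.33 ± 0.21 in HFD+EV against HFD (limma adjusted p = 0.915) and 0.45 ± 0.19 in ND+EV against ND (adjusted p = 0.574). The difference of these EV effects was -0.78 ± 0.28 (SE) and did not pass (limma adjusted p = 0.572, unadjusted 0.0191). Opposite signs were also the pattern of probe sets as bright as PYGM, with a mean signal between 7 and 9. Their median log2 fold change was -0.094 in HFD+EV against HFD and 0.16 in ND+EV against ND. Their median in the difference of the EV effects was -0.26, with 28.8% of them higher.

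Marker lists of the cell types in the tissue were set beside the PYGM difference in HFD against ND, where 0 of 44 tested markers passed with limma and 12 had an unadjusted p under 0.05. Of all probe sets 13.6% had such a p as higher, those that were lower not counted. Whatever their p, 47.5% of all probe sets were higher in HFD than in ND. By mean signal this share was 32.2% below 5, 59.7% between 5 and 7, 78.9% between 7 and 9 and 70.9% above 9. The 7 atrial markers had a mean log2 signal of 6.03 to 6.76 in HFD and 5.34 to 5.81 in ND, with 6 of 7 higher in HFD, but 5.61 to 5.78 in HFD+EV and 5.64 to 5.82 in ND+EV. Fibroblast markers (7 of 8 with a probe set) were at 8.28 to 8.94 in HFD and 7.24 to 8.35 in ND, which overlap, and all 7 were higher by their means. Smooth muscle and pericyte markers were at 6.60 to 7.09 in HFD and 5.90 to 6.74 in ND (4 of 5 higher), and endothelial markers at 6.56 to 6.78 in HFD and 6.16 to 6.62 in ND (5 of 5 higher), again with overlap. Cardiomyocyte markers (7 of 11 with a probe set) were at 11.33 to 11.45 in HFD and 10.93 to 11.32 in ND, but only 4 of 7 were higher. NPPB differed most, by 1.09, while ACTC1 (-0.14), MYBPC3 (-0.24) and RYR2 (-0.097) were lower. The 4 skeletal muscle markers were at 4.26 to 4.31 in HFD and 4.32 to 4.42 in ND. Other lists were dimmer or went down: the median log2 fold change in HFD against ND was 0.17 for macrophage markers. It was -0.16 for neutrophil, -0.26 for lymphocyte, -0.40 for red cell and -0.13 for adipocyte markers, from 2 tested markers each. The part of any of these lists in the PYGM result was not tested. In bulk tissue fewer cells of a type and less RNA per cell cannot be told apart.

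HK2, the insulin-responsive hexokinase of muscle, which traps glucose in the cell as glucose 6-phosphate, was the dimmest member. Its mean log2 signal of 3.84 exceeded that of 32.4% of probe sets and lay close to the filter at 3.63. The log2 signal was 3.43, 3.86 and 3.89 in HFD+EV, 4.23 and 4.16 in HFD, 3.57, 3.71 and 3.83 in ND+EV, and 3.86 on all 3 ND arrays. The 3 ND values and that of HFD+EV replicate 2 were the same to every deposited digit, 3.86358. At least 4 arrays shared a value at 12% of all probe sets, and in 99.9% of these the shared value was the median of the 11 arrays, so the SD of 0 for HK2 in ND is not a measure of the spread between hearts.

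Both HFD arrays were above every other array for HK2, and both EV groups reached below ND. The log2 fold change was 0.33 ± 0.16 (SE) in HFD against ND (limma adjusted p = 0.220) and -0.47 ± 0.16 in HFD+EV against HFD (adjusted p = 0.774, unadjusted 0.0121), or -0.32 without HFD+EV replicate 1. It was -0.16 ± 0.14 in ND+EV against ND (limma adjusted p = 0.758) and 0.025 ± 0.14 in HFD+EV against ND+EV (adjusted p = 0.973). HK2 passed in none of the comparisons.

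GAPDH, which makes NADH in the first energy-yielding step of glycolysis and is often used as a reference gene, was among the brightest probe sets, above 99.9% of the others. Its log2 signal was 12.32, 12.54 and 12.63 in HFD+EV, 12.67 and 12.57 in HFD, 12.59, 12.58 and 12.57 in ND+EV, and 11.88, 12.48 and 12.33 in ND. The 3 ND+EV values spanned less than 0.02, and ND replicate 1 was the lowest of the 11 arrays. GAPDH had a mean of 12.62 ± 0.07 on the 2 HFD arrays and 12.23 ± 0.31 on the 3 ND arrays (± SD), a log2 fold change of 0.39 ± 0.17 (SE; limma adjusted p = 0.206), close to the median of 0.37 for probe sets with a mean signal above 9. It was 0.21 without ND replicate 1, 0.14 when ND replicate 3 was left out as well, and -0.12 under cyclic loess, so no direction is given for GAPDH.

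With EV, GAPDH differed by 0.35 ± 0.16 (SE) in ND+EV against ND (limma adjusted p = 0.586, or 0.17 without ND replicate 1 and -0.076 under cyclic loess) and by -0.12 ± 0.17 in HFD+EV against HFD (adjusted p = 0.983). The diets differed by -0.082 ± 0.16 in EV-injected hearts, HFD+EV against ND+EV (limma adjusted p = 0.918).

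**Figure D2:**
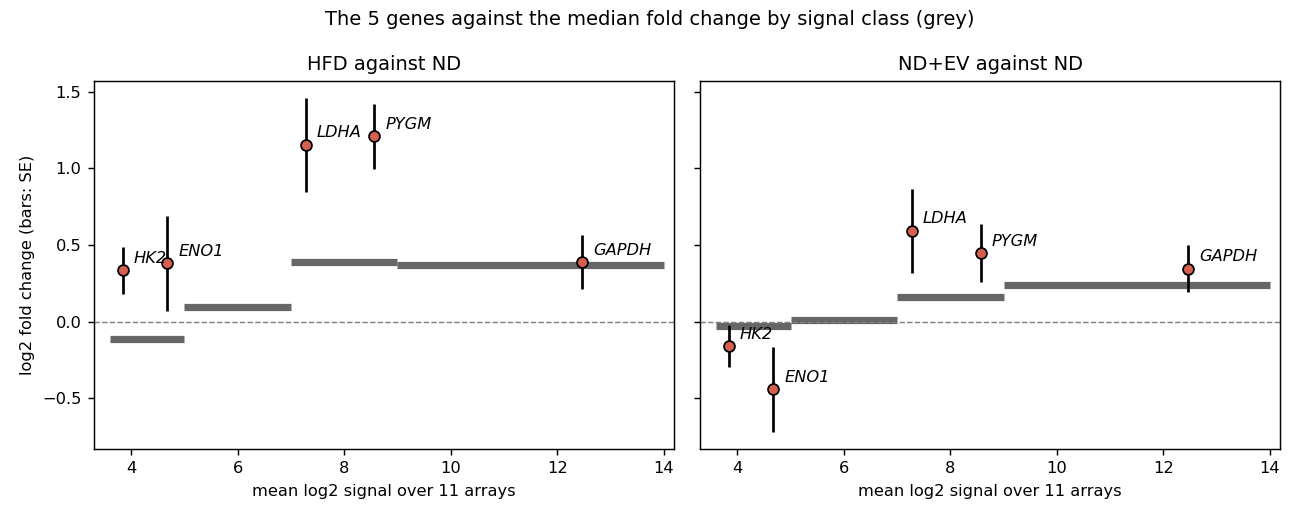
Log2 fold change of the 5 genes in HFD against ND (left) and ND+EV against ND (right) by mean log2 signal over the 11 arrays. Error bars are limma SE and grey bars are the median log2 fold change of all tested probe sets with a mean signal below 5, from 5 to 7, from 7 to 9 and above 9. In HFD against ND, GAPDH (0.39) lies on the grey bar of its class (0.37), and PYGM (1.21) and LDHA (1.15) lie above theirs (0.39).

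ENO1, the ubiquitous enolase, which forms phosphoenolpyruvate near the end of glycolysis, had the lowest values in the EV groups and the highest in HFD. Its log2 signal was 3.79, 4.68 and 4.88 in HFD+EV, 5.09 and 5.33 in HFD, 4.52, 4.75 and 3.91 in ND+EV, and 4.79, 4.92 and 4.79 in ND. Both vehicle groups were above the EV group of the same diet with no overlap, and HFD+EV replicate 1 and ND+EV replicate 3 were far below the rest. ND replicates 1 and 3 shared the value 4.79016, which was the median of the 11 arrays. ENO1 was a dim probe set, with a mean log2 signal of 4.68 that exceeded that of 56.4% of probe sets.

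The log2 fold change of ENO1 was -0.76 ± 0.31 (SE) in HFD+EV against HFD (limma adjusted p = 0.895, unadjusted 0.0328) and -0.44 ± 0.28 in ND+EV against ND (adjusted p = 0.662). Single arrays set much of the size: without HFD+EV replicate 1 it was -0.43 in HFD+EV against HFD, and without ND+EV replicate 3 it was -0.20 in ND+EV against ND. The mean EV effect, the average of both EV comparisons, was -0.60 ± 0.21 for ENO1 and -0.31 ± 0.10 for HK2 (limma adjusted p = 0.857 and 0.855, unadjusted 0.0153 and 0.0121). A mean EV effect above that of ENO1 was found at 99.6% of probe sets. ENO1 differed by 0.38 ± 0.31 in HFD against ND (limma adjusted p = 0.473) and by 0.058 ± 0.28 in HFD+EV against ND+EV (adjusted p = 0.971).

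LDHA, the lactate dehydrogenase subunit that favours the reduction of pyruvate to lactate, was the member that varied most between arrays, over a range of 2.05. Its log2 signal was 7.52, 7.98 and 7.61 in HFD+EV, 7.48 and 8.05 in HFD, 7.13, 7.36 and 7.11 in ND+EV, and 5.99, 7.21 and 6.62 in ND. As for PYGM, all 5 high fat diet arrays lay above all 6 normal diet arrays, and ND replicate 1 was the lowest. The groups ran HFD, HFD+EV, ND+EV, ND, with overlap between HFD and HFD+EV and between ND+EV and ND.

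LDHA had a mean of 7.76 ± 0.40 on the 2 HFD arrays and 6.61 ± 0.61 on the 3 ND arrays (± SD), a log2 fold change of 1.15 ± 0.31 (SE) or a fold of 2.23, which did not pass (limma adjusted p = 0.0775). A larger log2 fold change was found at 1.64% of probe sets for LDHA and at 1.35% for PYGM. The LDHA difference depended on the ND arrays: it was 0.85 without ND replicate 1, 0.56 without both ND replicates 1 and 3 (adjusted p = 0.464), and 1.45 without ND replicate 2, when it passed (limma adjusted p = 0.0244). The mean diet effect on LDHA was 0.83 ± 0.21 (limma adjusted p = 0.0647), and it passed in 4 of 21 alternatives: with the replicate block (adjusted p = 0.0229), without ND replicate 2 (0.0250), with array quality weights (0.0337) and without HFD+EV replicate 1 (0.0478). In EV-injected hearts LDHA was 7.70 ± 0.25 in HFD+EV and 7.20 ± 0.14 in ND+EV (SD, n = 3 each), a log2 fold change of 0.50 ± 0.27 (limma adjusted p = 0.723).

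For LDHA the EV comparisons gave 0.59 ± 0.27 (SE) in ND+EV against ND (limma adjusted p = 0.590) and -0.061 ± 0.31 in HFD+EV against HFD (adjusted p = 0.995). The first was 0.29 without ND replicate 1 and -0.0058 without both ND replicates 1 and 3. The second ranged from -0.34 without HFD replicate 1 to 0.22 without HFD replicate 2. The difference of the EV effects was -0.65 ± 0.41 for LDHA (limma adjusted p = 0.660), and 95% confidence intervals of this difference included 0 for the members other than PYGM (-1.40 to -0.15, unadjusted for the number of probe sets). The median of this difference was itself -0.26 for probe sets with a mean signal between 7 and 9, and -0.34 above 9.

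**Figure D3:**
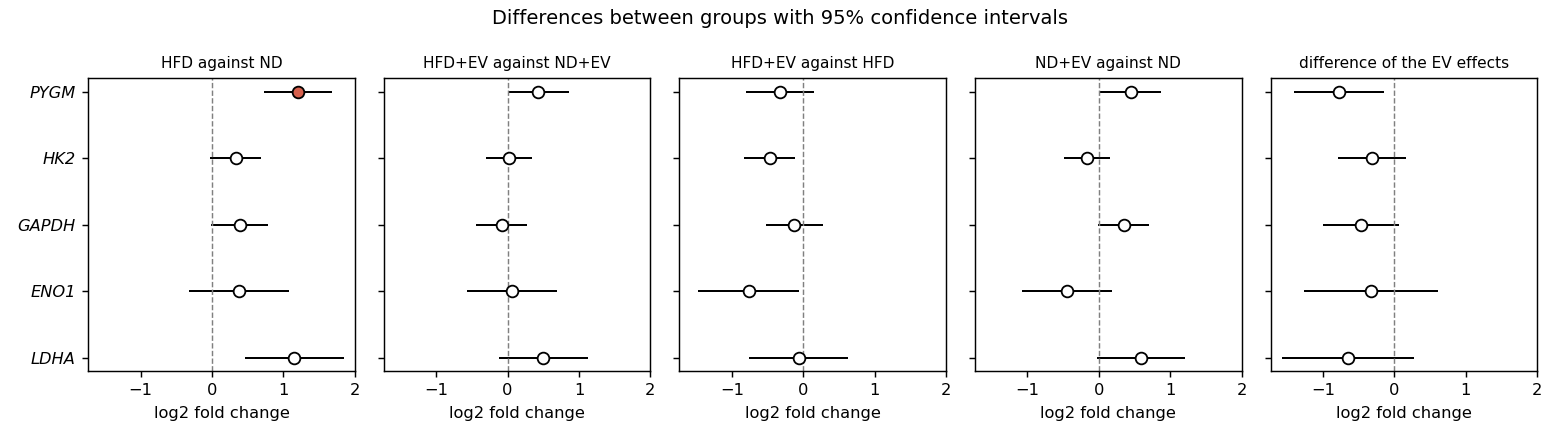
Log2 fold changes of the 5 genes in 4 comparisons of groups and in the difference of the EV effects, with 95% confidence intervals from limma. The filled point passed the threshold, which was the case only for PYGM in HFD against ND (1.21).

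Including GAPDH, whose difference turned to -0.12 under cyclic loess, all 5 members were higher on each HFD array than on any ND array. Such a separation in this direction held for 19.4% of all probe sets. In HFD+EV against ND+EV it held for 2 members, PYGM and LDHA, against 7.58% of probe sets. HK2 and ENO1 were lower on every EV array than on any vehicle array under each diet, which held for 11% of probe sets in HFD+EV against HFD and for 5.31% in ND+EV against ND. Under the normal diet the gap was narrow. The highest ND+EV value was 3.83 for HK2 and 4.75 for ENO1, and the lowest ND value was 3.86 and 4.79. Both of these ND values were shared by several arrays and equal to the median of the 11 arrays. The same shared values of HK2 and ENO1 enter the separation of HFD from ND. In ND+EV against ND, PYGM and GAPDH were higher without overlap (6.32% of probe sets). The high fat diet and EV comparisons share the HFD and ND arrays, so these counts are not independent of each other.

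Among the 10 pairs of members over the 11 arrays, LDHA and PYGM had a Pearson r of 0.78 and a Spearman rho of 0.85 (permutation test, 100000 resamples, adjusted p = 0.0359 and 0.00695), and r was 0.65 without the 2 arrays farthest from the median of LDHA, ND replicates 1 and 3. HK2 and ENO1 had r = 0.76 and rho = 0.89 (permutation adjusted p = 0.0413 and 0.0051), and r = 0.57 without HFD+EV replicate 1 and HFD replicate 1, the 2 farthest from the median of HK2. GAPDH and LDHA had r = 0.76 but rho = 0.32 (permutation adjusted p = 0.0427 and 0.497), and r was 0.38 without ND replicate 1 and 0.011 without both ND replicates 1 and 3, so this relation rests on those arrays. GAPDH and PYGM had r = 0.66 and rho = 0.56 (permutation adjusted p = 0.0448 and 0.254), and r = 0.40 without ND replicates 1 and 3. The 2 arrays farthest from the median of GAPDH were ND replicate 1 and HFD+EV replicate 1. Without them r of GAPDH was 0.56 with LDHA and 0.66 with PYGM. The other 6 pairs had r from 0.14 to 0.38 (permutation adjusted p of 0.49 or above). Some of these also turned on the same ND arrays: r of GAPDH was 0.23 with HK2 and 0.14 with ENO1 over all arrays, 0.52 and 0.43 without ND replicate 1, and 0.66 and 0.59 without ND replicates 1 and 3. Without those 2 arrays the remaining 4 of these pairs had r from 0.42 to 0.51. Once each group's mean was subtracted, r was 0.17 for LDHA with PYGM, 0.50 for HK2 with ENO1 and 0.71 for GAPDH with LDHA. The permutations treat the arrays as exchangeable, although they belong to 4 groups. Many other genes had a higher r with a member than its partner in these pairs. Among 9737 genes ranked by r, LDHA was at 548 for PYGM, and PYGM was at 720 for LDHA. ENO1 was at 111 for HK2, and HK2 was at 54 for ENO1. For GAPDH, LDHA was at 610 and PYGM at 1142.

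The genes most like each member over the 11 arrays were looked for among 9737 others. For PYGM they were ANKH (r = 0.963), APH1A (0.957) and PTRHD1 (0.953). For LDHA they were RAB8A (0.975), ARL6IP6 (0.974) and LAPTM4A (0.968), and for GAPDH they were PRELID3B (0.990), EGLN2 (0.978) and ERH (0.970). HK2 was most like POLR1A (0.953), DUSP26 (0.941) and PLA2G16 (0.939), and ENO1 most like LRRC39 (0.908), TOR1B (0.893) and MSRB3 (0.891). These are the highest of very many correlations over 11 arrays that share diet, injection and array quality, and are given as a description.

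The remaining genes of glucose and glycogen metabolism were sorted into 6 lists by role, with a seventh list of HIF1A and genes outside glycolysis that it is known to switch on. Of the 80 genes, 56 had a probe set and 51 passed the filter. In HFD against ND 40 of the 51 were higher and 11 lower, with a median log2 fold change of 0.30, against 47.5% higher and a median of -0.022 for all probe sets. Some of the list genes lay in the brighter signal classes, where more probe sets were higher. By class, 6 of 13 list genes were higher below a mean signal of 5 (32.2% of all probe sets there), 22 of 25 between 5 and 7 (59.7%), 8 of 8 between 7 and 9 (78.9%) and 4 of 5 above 9 (70.9%). Of these 51 genes 0 passed with limma; the smallest adjusted p was 0.0600, and 19 (37.3%) were higher with an unadjusted p under 0.05, against 13.6% of all probe sets. When both of these ND arrays, 1 and 3, were left out, 40 were higher, against 48.3% of all probe sets, the median was 0.25, and 6 (11.8%) had an unadjusted p under 0.05 as higher, against 6.26%. Under cyclic loess 39 were higher, against 49.4%, with a median of 0.22, and 12 (23.5%) had an unadjusted p under 0.05 as higher, against 10.4%. The count of 0 past the threshold became 8 without ND replicate 2, 6 with the replicate block and 4 without HFD+EV replicate 1.

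Among 7 other enzymes of the glycolytic chain that were tested, 6 were higher in HFD than in ND, with a median of 0.69 (0.41 without ND replicates 1 and 3, 0.24 under cyclic loess). Of all probe sets 47.5% were higher there, with 78.9% at a mean signal of 7 to 9 and 70.9% above 9. PKM, the pyruvate kinase that makes ATP in the last step, had a mean of 7.70 ± 0.05 on the HFD arrays and 6.82 ± 0.43 on the ND arrays (± SD), a log2 fold change of 0.88 (limma adjusted p = 0.0790). TPI1, which interconverts the triose phosphates, differed by 0.82 (limma adjusted p = 0.0778), GPI, which turns glucose 6-phosphate into fructose 6-phosphate, by 0.69 (0.0781), and ALDOC, the brain-type aldolase, by -0.017 (0.941). ENO3, the muscle enolase, differed by 0.53 (limma adjusted p = 0.0877), and its log2 signal was 9.49 ± 0.17 in HFD+EV, 9.58 ± 0.10 in HFD, 9.29 ± 0.07 in ND+EV and 9.05 ± 0.22 in ND. None of these passed. In HFD+EV against HFD all 7 enzymes were lower (median -0.18), against 50.4% of all probe sets. Without HFD+EV replicate 1, 3 of them were higher, as were 2 under cyclic loess. In ND+EV against ND 6 of the 7 were higher, against 49.2% of all probe sets. The median there was 0.29, or -0.012 under cyclic loess and 0.11 without both ND replicates 1 and 3. GPI, TPI1, ENO3, PGAM2 and PKM had mean signals above 7. At 7 to 9 and above 9, 68.3% and 69.5% of probe sets were higher in ND+EV against ND. In HFD+EV against HFD 36.1% and 34.5% were. Of the 7 enzymes 0 passed in either comparison, and 0 and 1 had an unadjusted p under 0.05.

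Of 3 tested genes of glucose entry, HK1, the hexokinase of most tissues, differed by 0.82 in HFD against ND (limma adjusted p = 0.0888), SLC2A4, the insulin-regulated glucose transporter, by 0.40 (0.260) and HKDC1 by -0.23 (0.565). Genes that set the fate of lactate and pyruvate were higher in HFD for 8 of 8, with a median of 0.70 (0.45 without ND replicates 1 and 3, 0.34 under cyclic loess), and 0 passed. Of all probe sets 47.5% were higher, with 59.7% at a mean signal of 5 to 7 and 78.9% at 7 to 9. DLAT, a subunit of pyruvate dehydrogenase, had the smallest p of all 51 genes (log2 fold change 1.08, limma adjusted p = 0.0600), but its second probe set pointed the other way (-0.50). PDK3, a kinase that switches pyruvate dehydrogenase off, differed by 0.87 (limma adjusted p = 0.0750). The 4 tested regulators of phosphofructokinase and its products had a median of 0.11, with PFKFB2, the heart form of the enzyme that makes fructose 2,6-bisphosphate, at 0.50 and PFKFB3 at -0.37 (limma adjusted p = 0.222 and 0.229).

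Beside PYGM, 8 genes of glycogen breakdown were tested, 6 of which were higher in HFD than in ND (median 0.26) and 0 of which passed. PGM1, which converts glucose 1-phosphate to glucose 6-phosphate, differed by 0.87 and PYGL, the liver phosphorylase, by 0.65 (limma adjusted p = 0.113 and 0.155), while the phosphorylase kinase subunits PHKG1 and PHKG2 were at -0.029 and -0.051. Genes of glycogen synthesis were higher for 8 of 12 (median 0.28), again with 0 passing. In HFD against ND 47.5% of all probe sets were higher. By mean signal this share was 32.2% below 5, 59.7% at 5 to 7 and 78.9% at 7 to 9. GYG1, the glycogenin that primes a new glycogen particle, had a mean of 6.36 ± 0.47 on the HFD arrays and 5.18 ± 0.38 on the ND arrays (± SD), a log2 fold change of 1.18 ± 0.28 (SE; limma adjusted p = 0.0659). GYS1, the muscle glycogen synthase, differed by 0.91 ± 0.24 (limma adjusted p = 0.0759), and PPP1R3B, which targets a phosphatase to glycogen, by -0.29 (0.198). In HFD+EV against HFD, GYG1 had the smallest p of the 51 genes, with 5.33 ± 0.43 in HFD+EV (n = 3) and a log2 fold change of -1.02 ± 0.28 (limma adjusted p = 0.645).

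**Figure D4:**
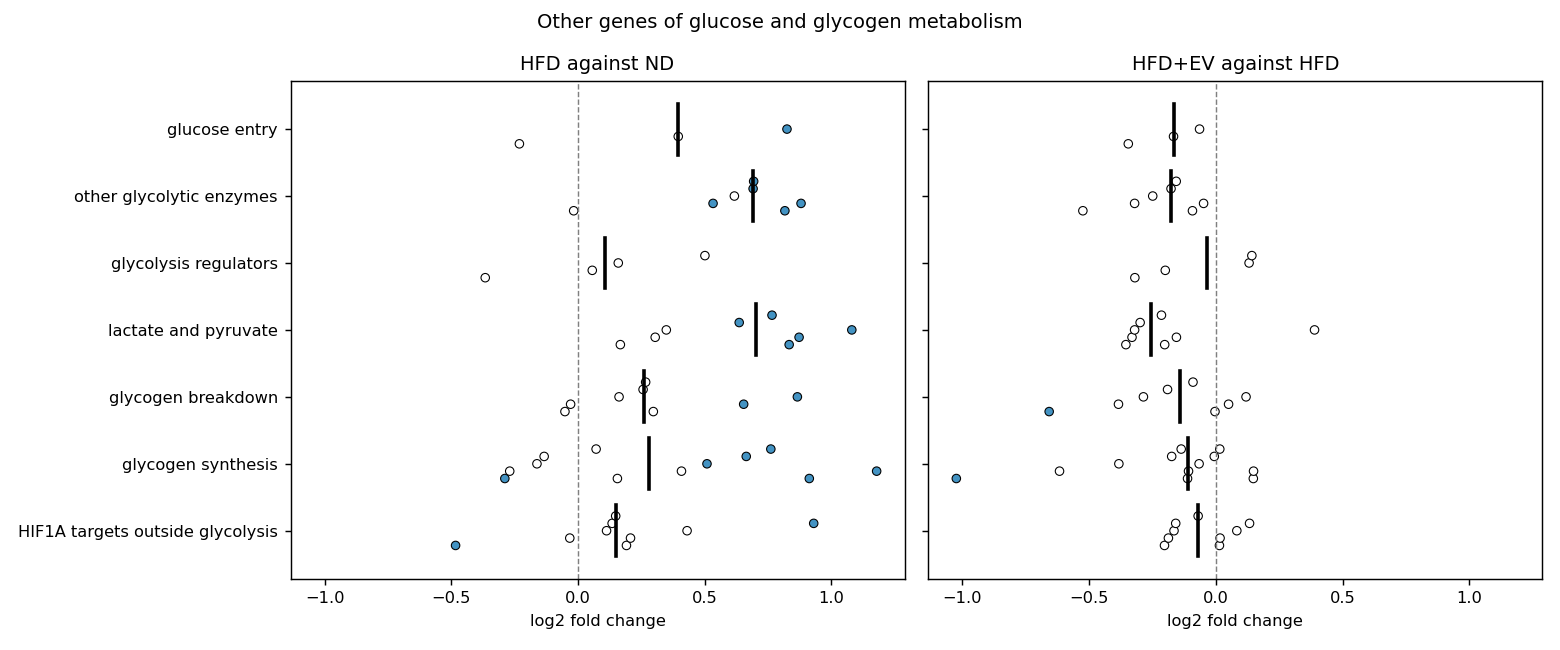
Log2 fold changes of 51 genes in 7 lists by role, in HFD against ND (left) and HFD+EV against HFD (right). Points are genes, filled where the unadjusted p was under 0.05, and black bars are list medians. In HFD against ND 40 genes were higher, and in HFD+EV against HFD 39 were lower (50.4% of all probe sets were), with 0 past the threshold in either. In HFD+EV against HFD 12 were higher (median -0.16), but 19 without HFD+EV replicate 1 (median -0.070). Of all probe sets with a mean signal of 5 to 7 and 7 to 9, 42.8% and 36.1% were higher in HFD+EV against HFD. The 2 comparisons share the HFD arrays.

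**Figure D5:**
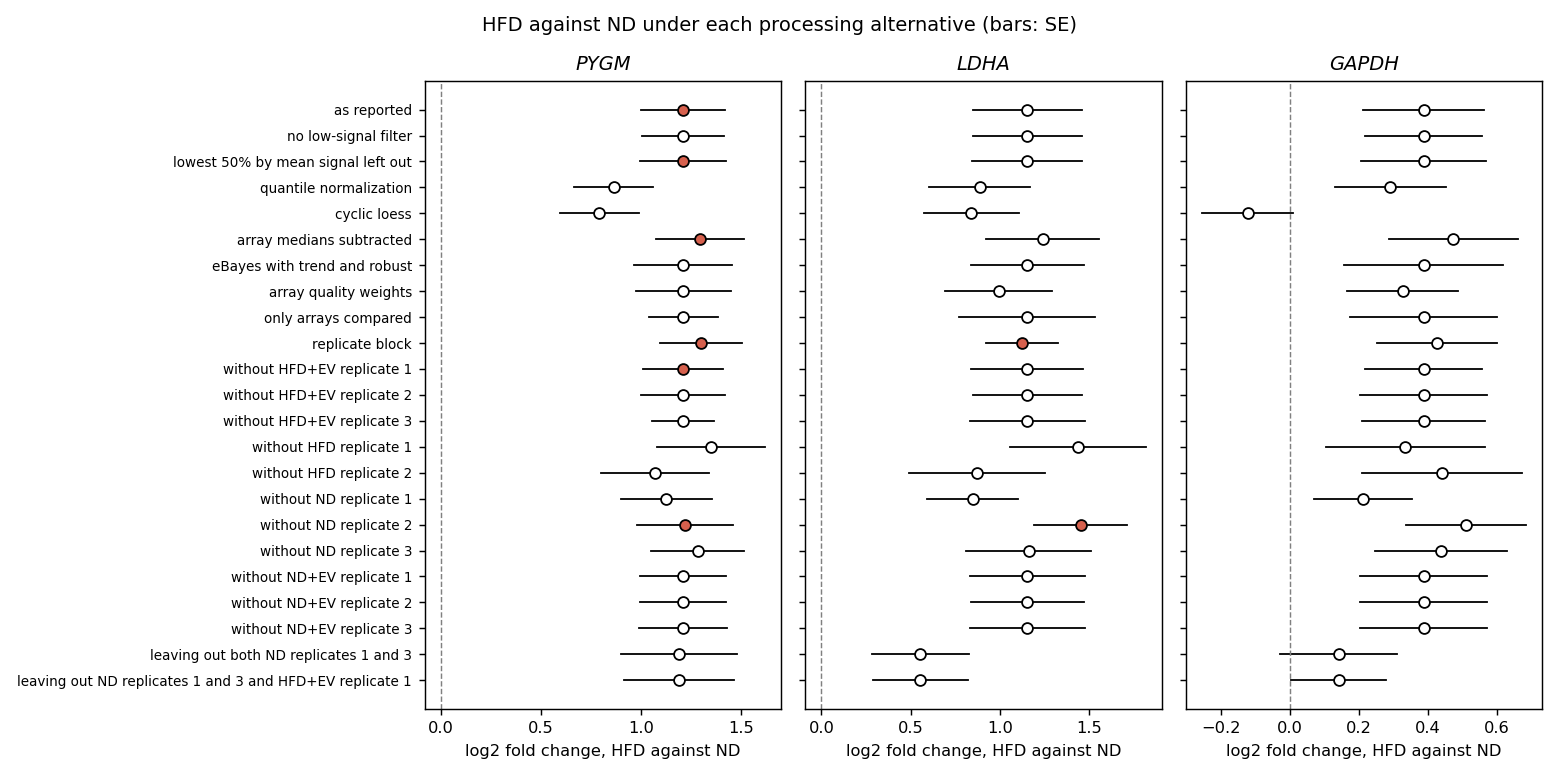
Log2 fold change of PYGM, LDHA and GAPDH in HFD against ND as reported and under each processing alternative, with limma SE as bars and filled points for an adjusted p under 0.05. PYGM stays between 0.79 and 1.35, LDHA spans 0.56 to 1.45, and GAPDH turns to -0.12 under cyclic loess.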

How the data were processed

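Values were the log2 signal of each probe set as deposited, normalized by the authors, for 11 arrays made from 50 ng of total RNA per array, per the labels' protocols. Transcriptome Analysis Console is named in the submitters' processing notes; no version, summary or normalization method and no build is stated there. That the scale is log2 was judged from the range of the values (2.14 to 14.02). Many probe sets hold the same value on several arrays, which lowers their spread. Detection calls, scan dates and batches were not used here. Precision is limited by how few arrays there are.

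Symbols came from the platform annotation (1 symbol for 13157 probe sets, several for 523, none for 13878). A RefSeq gene ID was matched for 12841 of those with a single symbol, and 7 symbols were updated through it. A gene of a list was read from its brightest probe set. Probe sequences were not used here, so signal from processed copies of GAPDH, ENO1 or LDHA was not assessed.

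Group means were estimated jointly from the 11 arrays with lmFit and eBayes of limma 3.58.1 (R 4.3.3; 7 residual and 3.62 prior degrees of freedom), and 7 contrasts were tested two-sided over 20668 probe sets. Lists are described by counts and medians, without a set test. The rule for named genes took the 5 members, the 3 genes most like each, and from each list the lowest, the highest and the one with the smallest p, and further list genes were named for their role after their values were seen. The members and lists were chosen with earlier results of these data known. Alternatives covered the filter, normalization, variance model, arrays in the fit and replicate block. The functions were tested on simulated data.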

Additional observations from a re-analysis of the deposited data

How the results depend on the processing

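Of 35 member results (5 genes in 7 comparisons), 21 kept their direction under every alternative run. The HK2 results have no value when the lowest 50% of probe sets is left out, since HK2 is among them. For PYGM the mean diet effect did not pass in 15 of 21 alternatives, where its adjusted p was above 0.05. Its size stayed between 0.56 (cyclic loess) and 0.89. Counts of probe sets were less stable. HFD against ND (152, of which 106 were higher) gave 0 without the filter, under quantile normalization, cyclic loess, eBayes with trend and robust or array quality weights, with only the arrays compared, and when ND replicates 1 and 3 were left out, alone or together with HFD+EV replicate 1 (a set chosen after seeing the data). Leaving out single arrays gave 0 to 1356, with 1356 without ND replicate 2, 722 without HFD+EV replicate 1, 12 without ND replicate 3, 7 without HFD replicate 1, 1 without ND replicate 1 and 0 without any of the other 6 arrays. The mean diet effect (242, of which 178 were higher) gave 0 without the filter, under quantile normalization, cyclic loess, eBayes with trend and robust, and without both ND replicates 1 and 3. It gave 463 with the lowest 50% left out, 581 with array medians subtracted (501 higher), 1665 with array quality weights and 0 to 1399 without single arrays. HFD+EV against ND+EV gave 10 with array quality weights, 2 without both ND replicates 1 and 3, and 0 to 2 without single arrays. That range was 0 to 2 for ND+EV against ND, and 0 to 1 for HFD+EV against HFD and for both EV summaries (difference and mean).

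The replicate block gave 938 probe sets in HFD against ND and 985 for the mean diet effect. Deviations from the group means of same-numbered arrays correlated at -0.10 to 0.33 (median 0.078, 15 pairs). Those of differently numbered arrays correlated at -0.34 to 0.19 (median -0.047, 30 pairs). The labels do not say that the numbers pair animals, so the block was kept as an alternative. Whether arrays of the same number share a source of variation was not tested. With the block LDHA passed in HFD against ND (1.13, adjusted p = 0.0275).

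Under cyclic loess GAPDH turned to -0.12 in HFD against ND, -0.076 in ND+EV against ND, 0.044 in the difference of the EV effects, -0.10 in the mean diet effect and -0.054 in the mean EV effect, and LDHA to 0.031 in HFD+EV against HFD. This last was also 0.049 under quantile normalization, 0.015 with array quality weights, 0.032 with those 3 arrays left out, and -0.34 to 0.22 without single arrays. Without both ND replicates 1 and 3, LDHA was -0.0058 in ND+EV against ND and -0.033 in the mean EV effect, and GAPDH was -0.012 in the mean EV effect. With HFD+EV replicate 1 left out too, LDHA was -0.0058 in ND+EV against ND and 0.038 in the difference of the EV effects, ENO1 was 0.094 in that difference and GAPDH was 0.0071 in HFD+EV against ND+EV. Without single arrays HFD+EV against ND+EV ran from -0.057 to 0.18 for HK2, from -0.18 to 0.39 for ENO1 and from -0.15 to 0.0071 for GAPDH. The difference of the EV effects ran from -0.57 to 0.0090 for ENO1 and from -0.95 to -0.35 for LDHA, and the mean EV effect from -0.049 to 0.13 for PYGM. The cause of these turns was not tested.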

Other observations

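HIF1A, the oxygen-sensitive subunit of the hypoxia-inducible factor, averaged 6.71 ± 0.38 (log2 signal, SD) in HFD+EV (n = 3), 6.70 ± 0.26 in HFD (n = 2), 6.18 ± 0.19 in ND+EV (n = 3) and 5.77 ± 0.39 in ND (n = 3). Its log2 fold change was 0.93 ± 0.26 (SE) in HFD against ND and did not pass (limma adjusted p = 0.0807), and the mean diet effect was 0.73 ± 0.18 (adjusted p = 0.0621). Of 9 tested genes in the list of HIF1A and its targets outside glycolysis, 7 were higher in HFD than in ND, with a median of 0.15, and 0 passed. In this comparison 47.5% of all probe sets were higher, and 59.7% of those with a mean signal of 5 to 7. VEGFA, a target that makes new vessels grow, had the lowest value of the list there, at 9.60 ± 0.08 in HFD and 10.09 ± 0.38 in ND, a log2 fold change of -0.48 ± 0.21 (SE; limma adjusted p = 0.196).

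Identical values on several arrays were common among dim probe sets. At least 3 arrays shared a value at 30.6% of probe sets with a mean log2 signal below 5 and at 5.65% of those above 7. HK2 and ENO1 belong to the first class. PYGM, LDHA and GAPDH had 11 different values each.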
